A study of Rattus norvegicus with 4 samples.

Results

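Chemokines are small secreted proteins that guide white blood cells, and they act through receptors with several membrane-spanning segments that couple to inhibitory G proteins. The 52 genes described here are all genes whose symbol in the platform annotation begins with Ccl, Cxcl, Cx3cl, Xcl, Ccr, Cxcr, Cx3cr, Xcr or Ackr followed by a digit, out of 14506 named genes on the arrays. They comprised 33 ligands, of which 19 were of the CC and 12 of the CXC class, and 19 receptors, of which 9 were CC, 6 CXC and 2 atypical receptors. Each was measured by 1 probe set.

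Liver RNA came from male WNIN/Ob rats aged 4 months, an inbred strain of Wistar origin in which obese animals arise beside lean ones. RNA of 4 obese animals formed an obese pool and RNA of 4 lean animals a lean pool, the animals received no treatment, and the labels give the phenotype without a genotype. Each pool was hybridised to an original and a technical replicate array, so the data hold 2 arrays of 1 pool per phenotype. No value below has a replicate check across animals, no p-value was computed, and every difference compares these 2 pools.

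In liver, Kupffer cells, sinusoidal endothelium, stellate cells, bile duct cells and hepatocytes can all release chemokines, and the receptors are carried mostly by the leukocytes that respond. The ligand classes are named for the spacing of their conserved cysteines: adjacent in CC, separated by a single residue in CXC and by more in CX3C. Atypical receptors bind chemokines and remove them without the usual G protein signal. In a whole-tissue sample, fewer cells of a type and less RNA per cell cannot be told apart.

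Abundant signal was limited to a few ligands, and the pools differed little over the family. Levels are log2 intensities, and the median of all probe sets stood at 4.69 and 4.79 on the obese arrays and at 4.77 and 4.75 on the lean arrays. Of the 52 genes, 19 lay above that median on all 4 arrays, which is 36.5%, against 57.2% of all 14506 genes. They were 15 ligands and 4 receptors. Brightness depends on the probes of a probe set as well as on its transcript, so the order of these intensities is not an order of transcript numbers. The 1.5-fold rule used here asks for a factor of 1.5 between pool means, a gap of 0.25 on the log2 scale between the nearest arrays of the pools, and a level of at least 5.48, the median of all genes, in the higher pool. By that rule 1 of the 52, Cxcl9, was higher in the obese pool, where 2.19% of all genes were. Likewise 1 of the 52, Cxcl13, was lower in the obese pool, where 2.43% of all genes were. Both shares of the family, at 1.92%, lie near the shares of all genes. Cxcl9 met the level of 5.48 in the obese pool only, with a lean level of 5.46. By a 2-fold form of the rule with a gap of 0.5, 0 of the 52 were higher and 0 lower, where 0.572% and 1.48% of all genes were.

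**Figure D1:**
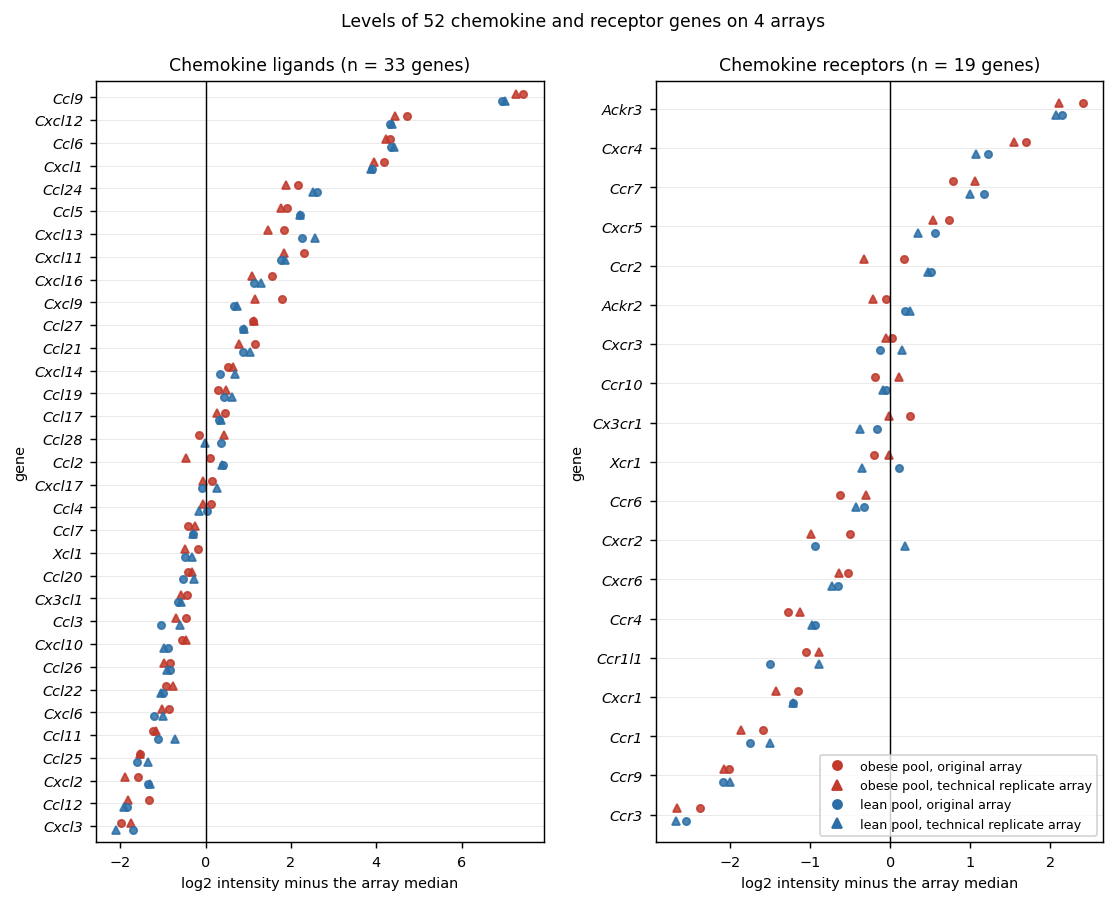
Level of each ligand (left) and receptor gene (right) on each array, as log2 intensity minus the median of all probe sets on that array, with genes ordered by mean level. Red marks the obese pool and blue the lean pool, circles the original and triangles the technical replicate arrays. Ccl9 stands 7.37 above the median in the obese pool and 6.99 in the lean pool, and 33 of the 52 genes are at or below the line on at least 1 array.

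The remaining 50 genes passed the 1.5-fold rule in neither direction. Among all 52, the arrays of the pools did not overlap for 13 genes that were higher in the obese pool, which is 25%, against 27.5% of all genes. They did not overlap for 11 genes that were lower, which is 21.2%, against 18.5% of all genes. The other 28 genes had overlapping arrays. The median difference, obese minus lean, was 0.02 over the ligands and -0.02 over the receptors, against 0.03 over all genes. For 34 of the 52 genes, the 2 arrays of at least 1 pool lay further apart than the pool means. This count was not made over all genes, so it does not set the family apart. The spread between the arrays of a pool, as an SD over the family, was 0.26 in the obese and 0.25 in the lean pool. Over all genes it was 0.27 and 0.20.

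**Figure D2:**
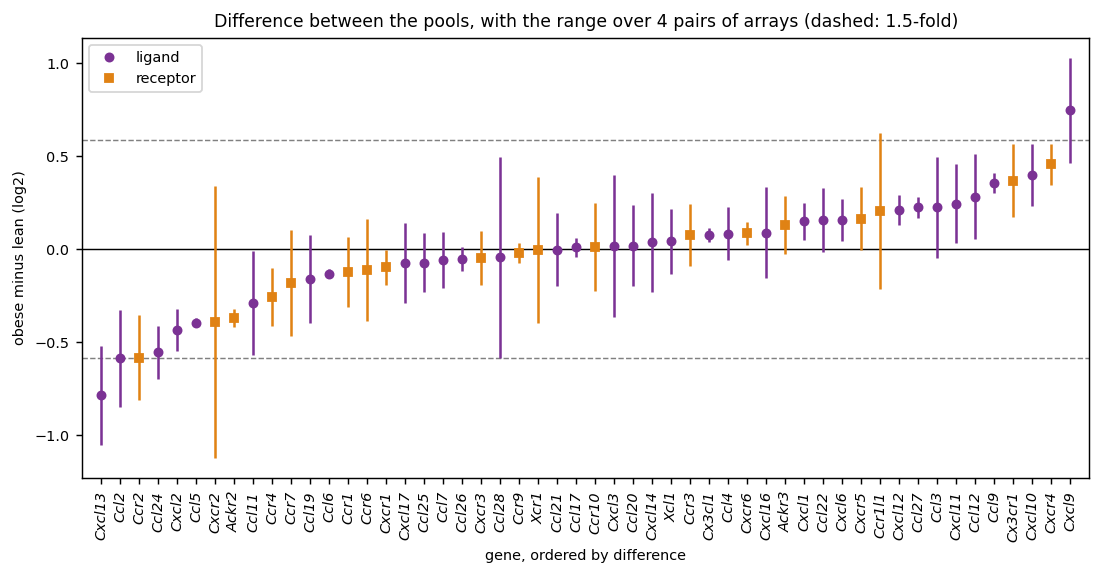
Difference of the pool means, obese minus lean on the log2 scale, for each of the 52 genes in order of size, with vertical lines over the 4 pairs of an obese and a lean array. Dashed lines mark a factor of 1.5. Cxcl9 at 0.75 is the point above the upper line, Cxcl13 at -0.79 and Ccl2 at -0.59 lie below the lower line, and Ccr2 at -0.58 touches it.

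Cxcl9, Cxcl10 and Cxcl11 are the interferon-inducible CXC ligands of Cxcr3, a receptor of activated T and natural killer cells. The genes lie side by side in the gene order of the rat assembly GRCr8, and all 3 were brighter on both obese arrays than on either lean array. Cxcl9 stood at 6.48 and 5.94 on the obese original and technical replicate arrays, against 5.45 and 5.48 on the lean arrays. The obese arrays differed more from each other than the lean ones did, and the original array was the brighter. Its difference was 0.75, a fold of 1.68 with a range of 1.38 to 2.04 over the 4 pairs of arrays. Without the obese original array the difference was 0.48 and no member was higher by the 1.5-fold rule. The upper quartile of all probe sets was 6.62 on that array and 6.50 on the other obese array, against 6.51 and 6.52 on the lean arrays, and its part in these values was not tested. With cyclic loess, a further normalisation of the arrays to each other, Cxcl9 differed by 0.70.

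Cxcl10 had 4.12 and 4.34 on the obese arrays, against 3.89 and 3.77 on the lean arrays. It lay below the array median on all 4 arrays, so its signal may be background, and its difference was 0.40 (0.23 to 0.56 over the pairs). Cxcl11 had 7.0 and 6.63 on the obese arrays, against 6.54 and 6.60 on the lean arrays. Its obese technical replicate array lay only just above the lean arrays, and the difference of 0.24 had pairs from 0.03 to 0.46. The difference of Cxcl11 was 0.06 without the obese original array. Their receptor Cxcr3 had 4.70 and 4.74 on the obese arrays, against 4.64 and 4.90 on the lean arrays, and the arrays overlapped. Ifng, the cytokine that gives these ligands their common name of interferon-inducible, was dim at 2.62 and 2.76 on the obese arrays, against 2.79 and 2.57 on the lean arrays.

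Sharing a direction is not particular to the trio of Cxcl9, Cxcl10 and Cxcl11, which was picked from these same differences. The neighbours Ccl17, Cx3cl1 and Ccl22 also all had differences above 0, Cx3cl1 alone without overlap. The neighbours Ccl24 and Ccl26 both had differences below 0, as did Cxcr2 and Cxcr1. Cxcl13 was the CXC ligand with the largest difference in the opposite direction. The promoters of the trio are shown because its 3 genes shared a direction, with that of Cxcl13 for comparison. They are RefSeq sequences of GRCr8 from 250 bases before to 50 after the start of the gene, 5′ to 3′ on the strand of the gene: Cxcl9 at chr14:16006916-16007215 (+), Cxcl10 at chr14:15988816-15989115 (+), Cxcl11 at chr14:15973478-15973777 (+) and Cxcl13 at chr14:13917871-13918170 (-). Capitals mark letters that match a searched pattern on either strand.
Cxcl9: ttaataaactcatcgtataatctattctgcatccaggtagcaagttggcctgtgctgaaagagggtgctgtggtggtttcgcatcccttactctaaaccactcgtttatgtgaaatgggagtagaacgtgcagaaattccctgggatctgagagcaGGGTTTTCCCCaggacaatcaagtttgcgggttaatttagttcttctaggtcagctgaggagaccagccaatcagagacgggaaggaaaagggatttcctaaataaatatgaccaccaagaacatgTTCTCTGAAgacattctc
Cxcl10: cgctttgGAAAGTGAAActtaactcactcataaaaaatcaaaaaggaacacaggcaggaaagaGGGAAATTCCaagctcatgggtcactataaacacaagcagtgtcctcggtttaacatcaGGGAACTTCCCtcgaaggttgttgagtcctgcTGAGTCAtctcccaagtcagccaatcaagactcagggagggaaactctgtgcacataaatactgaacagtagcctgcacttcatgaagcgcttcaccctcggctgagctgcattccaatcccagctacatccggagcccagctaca
Cxcl11: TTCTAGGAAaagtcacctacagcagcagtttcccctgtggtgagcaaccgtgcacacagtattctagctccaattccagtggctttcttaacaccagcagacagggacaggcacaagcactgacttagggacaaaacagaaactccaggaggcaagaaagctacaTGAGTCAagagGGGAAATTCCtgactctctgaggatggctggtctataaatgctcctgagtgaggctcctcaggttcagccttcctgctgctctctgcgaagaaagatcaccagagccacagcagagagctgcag
Cxcl13: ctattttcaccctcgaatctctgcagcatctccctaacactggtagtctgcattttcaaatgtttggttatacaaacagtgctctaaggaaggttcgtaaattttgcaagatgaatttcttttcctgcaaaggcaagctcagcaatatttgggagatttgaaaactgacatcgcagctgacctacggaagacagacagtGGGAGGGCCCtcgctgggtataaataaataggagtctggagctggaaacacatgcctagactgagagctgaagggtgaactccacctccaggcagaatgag

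The patterns were GGGNNNNNCC for NF-kB, TTCNNNGAA for the interferon-gamma-activated site, GAAANNGAAA for the core of the interferon-stimulated response element and TGANTCA for AP-1, where N is any base. In Cxcl9 overlapping NF-kB matches covered positions -94 to -84 from the start, and TTCTCTGAA lay at 33 to 41. In Cxcl10 NF-kB matches lay at -187 to -178 and, overlapping each other, at -128 to -118, with GAAAGTGAAA at -243 to -234 and TGAGTCA at -96 to -90. In Cxcl11 the letters GGGAAATTCC, also present in Cxcl10, lay at -74 to -65, with TGAGTCA at -85 to -79 and TTCTAGGAA at -250 to -242. In Cxcl13 the single match was GGGAGGGCCC at -51 to -42, which fits the NF-kB pattern. The NF-kB pattern is loose and occurs in 47.3% of all 33469 promoters of this length, the interferon-gamma-activated site in 8.87%, AP-1 in 7.33% and the interferon-stimulated core in 3.92%. Among the 41 members with a promoter in the table, 21 held the NF-kB pattern, 7 AP-1, 6 the interferon-gamma-activated site and 2 the interferon-stimulated core. A match describes letters only and is not a bound site.

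Cxcl13, which draws B cells through its receptor Cxcr5, was the family member with the largest difference in the lower direction. It had 6.51 and 6.25 on the obese arrays, against 7.04 and 7.30 on the lean arrays, and the pools did not overlap. The difference was -0.79, a fold of 1.73 lower with a range of 1.44 to 2.08. On the original arrays alone it was -0.52, below a factor of 1.5, and on the technical replicate arrays alone -1.05. Cxcr5 had 5.42 and 5.33 on the obese arrays, against 5.34 and 5.09 on the lean arrays, which overlapped.

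Neither Ccl2 nor its receptor Ccr2 passed the 1.5-fold rule, and both lay near the array median with differences close to a factor of 1.5. Ccl2, the main attractant of inflammatory monocytes, had 4.79 and 4.33 on the obese arrays, against 5.18 and 5.12 on the lean arrays. Its difference was -0.59, a fold of 1.5 lower (1.26 to 1.80), and it passed the size and gap of the 1.5-fold rule but not the level. Without the level filter 2 of the 52 genes, Ccl2 and Cxcl13, were lower by the rule, where 3.03% of all genes were, and 1, Cxcl9, was higher, where 2.60% were. Ccr2, the receptor that lets monocytes leave the bone marrow, had 4.86 and 4.47 on the obese arrays, against 5.28 and 5.22 on the lean arrays. Its difference of -0.58 fell just short of a factor of 1.5, with pairs from -0.81 to -0.36. For both genes the obese technical replicate array was the lowest of the 4, and without it the differences were -0.36 for Ccl2 and -0.39 for Ccr2.

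The other CC ligands known to bind Ccr2 in rodents did not share one direction. Ccl7 had 4.26 and 4.53 on the obese arrays, against 4.47 and 4.44 on the lean arrays, which overlapped. Ccl12 was dim in both pools, at 3.34 and 2.97 on the obese arrays and at 2.92 and 2.83 on the lean arrays, which did not overlap. Ccl11, the eotaxin encoded between Ccl7 and Ccl12, had 3.46 and 3.64 on the obese arrays, against 3.65 and 4.03 on the lean arrays. The neighbours Ccl2, Ccl7, Ccl11 and Ccl12 thus had differences from -0.59 to 0.28.

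**Figure D3:**
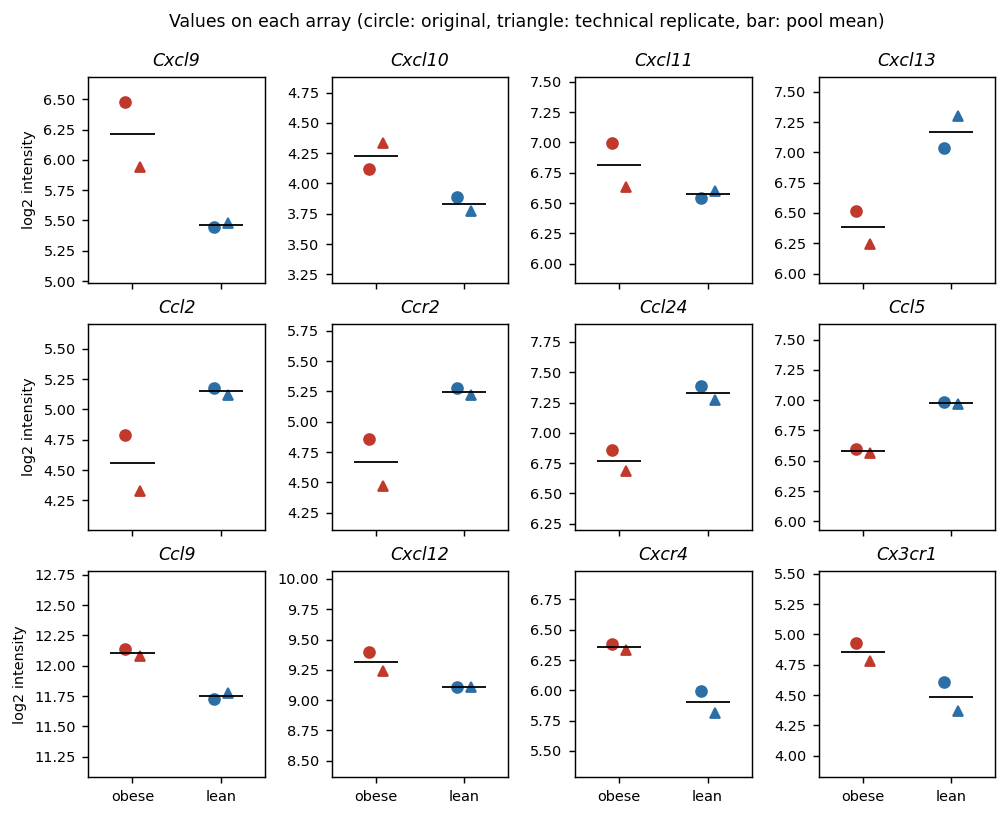
Log2 intensity of 12 family members on each array, with the obese pool at left and the lean pool at right of each panel, circles for original and triangles for technical replicate arrays, and a bar at the pool mean. All panels span the same width of log2 units around their own mean and do not start at 0. Cxcl9 is higher in the obese pool with obese arrays at 6.48 and 5.94, and Cxcl13, Ccl2, Ccr2, Ccl24 and Ccl5 are lower there without overlap.

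Ccl24, an eotaxin that recruits eosinophils through Ccr3, came close to the rule in the lower direction. It had 6.85 and 6.69 on the obese arrays, against 7.38 and 7.27 on the lean arrays, a difference of -0.56 and a fold of 1.47 lower (1.33 to 1.62). With cyclic loess between the arrays its difference was -0.64 and it passed the rule. Its receptor Ccr3 was the dimmest member, at 2.31 and 2.13 on the obese arrays and 2.22 and 2.07 on the lean arrays. Ccl26, another eotaxin and the neighbour of Ccl24, was dim as well and differed by -0.05.

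Ccl9 was the brightest member and one of the brighter genes on the arrays. It is a rodent ligand of Ccr1, and 99.4% of all genes had a lower mean level. It had 12.14 and 12.08 on the obese arrays, against 11.73 and 11.78 on the lean arrays, without overlap and with a fold of 1.28 (1.23 to 1.33). The neighbouring Ccl6, a further rodent ligand of Ccr1, ran the other way by less, at 9.01 and 9.01 on the obese arrays and 9.12 and 9.16 on the lean arrays. Ccl5, which attracts T cells and monocytes, had 6.59 and 6.57 on the obese arrays, against 6.99 and 6.97 on the lean arrays. The 2 arrays of each pool lay within 0.03 of each other for Ccl5, and its fold was 1.32 lower (1.30 to 1.34). Ccl3 and Ccl4, the macrophage inflammatory proteins of the same neighbourhood, had overlapping arrays and differences of 0.22 and 0.08. Their receptor Ccr1 was dim, at 3.09 and 2.93 on the obese arrays and 3.02 and 3.24 on the lean arrays. The related Ccr1l1 differed by 0.20 with pairs from -0.21 to 0.62. Probe sets of such close relatives may share signal.

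Of the neutrophil attractants, Cxcl1 was bright and its relatives dim. Cxcl1 had 8.87 and 8.73 on the obese arrays, against 8.68 and 8.63 on the lean arrays, a difference of 0.15. Cxcl2, another ligand of the neutrophil receptor Cxcr2, had 3.09 and 2.89 on the obese arrays, against 3.41 and 3.44 on the lean arrays. That gave a difference of -0.44 without overlap, at a level under the array median by 1.75 in the obese and 1.33 in the lean pool. Cxcl3 differed by 0.02 with pairs from -0.37 to 0.40, and Cxcl6 by 0.16 with pairs from 0.04 to 0.27. Cxcr2 itself was the member with the least stable value. Its obese arrays stood at 4.18 and 3.80 and its lean arrays at 3.84 and 4.93, so the lean arrays alone lay 1.09 apart. Cxcr1, the neighbouring receptor gene, was dim, with a difference of -0.10.

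**Figure D4:**
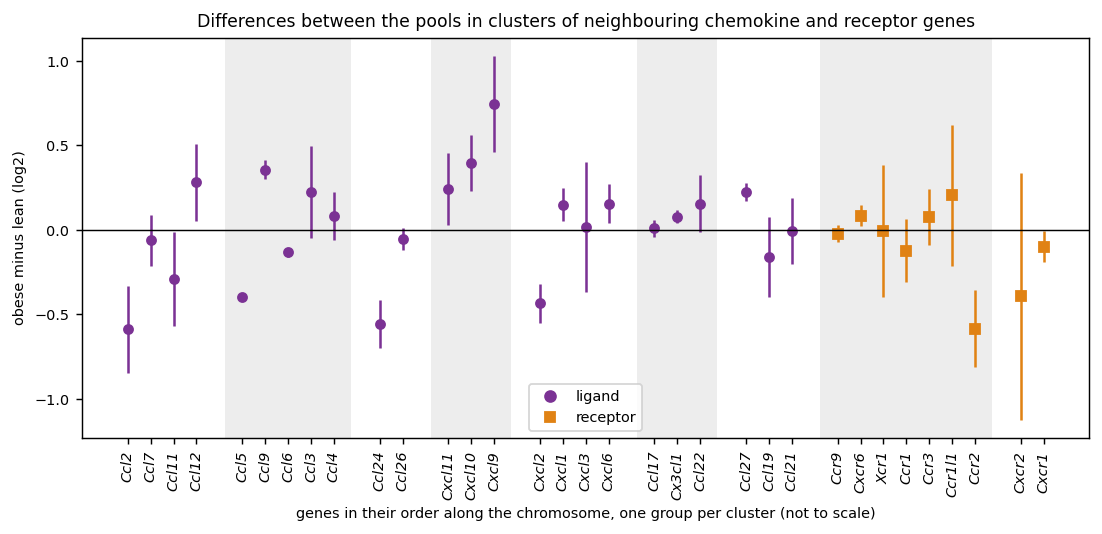
Difference of the pool means, obese minus lean on the log2 scale, for the 33 members that lie in 9 clusters of neighbouring genes in the GRCr8 gene order, with vertical lines over the 4 pairs of arrays and shading to separate clusters. Neighbours have at most 3 other protein-coding genes between them. In the cluster of Cxcl11, Cxcl10 and Cxcl9 all 3 ranges lie above 0, and in the cluster of 7 receptor genes that of Ccr2 lies lowest.

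The Cxcl12 axis lay above the array median in its ligand and both its receptors. Cxcl12, which retains stem cells and lymphocytes in tissues, had 9.40 and 9.24 on the obese arrays, against 9.11 and 9.11 on the lean arrays. Its fold was 1.16 (1.09 to 1.22). Cxcr4, its signalling receptor, had 6.38 and 6.34 on the obese arrays, against 5.99 and 5.82 on the lean arrays. That was the largest receptor difference in the higher direction, at 0.45 and a fold of 1.37 (1.27 to 1.48), and it stayed under a factor of 1.5. Ackr3, the atypical receptor that removes Cxcl12, had 7.09 and 6.90 on the obese arrays, against 6.92 and 6.81 on the lean arrays, which overlapped. The second atypical receptor measured, Ackr2, scavenges inflammatory CC chemokines. It had 4.64 and 4.58 on the obese arrays, against 4.96 and 5.0 on the lean arrays, a difference of -0.37 without overlap.

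Cx3cr1, the fractalkine receptor of patrolling monocytes and some liver macrophages, was higher in the obese pool by 0.37. It had 4.93 and 4.78 on the obese arrays, against 4.61 and 4.37 on the lean arrays, all near the array median. Its ligand Cx3cl1 had 4.24 and 4.21 on the obese arrays, against 4.13 and 4.17 on the lean arrays, without overlap but with a difference of 0.08. Cxcl16, the membrane-anchored ligand of the lymphocyte receptor Cxcr6, had 6.25 and 5.88 on the obese arrays, against 5.92 and 6.03 on the lean arrays. Those arrays overlapped, and the difference of 0.09 became -0.10 without the obese original array. Cxcr6 was dim and differed by 0.08.

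Ccl19 and Ccl21 are the ligands of the lymph node homing receptor Ccr7. Ccl19 differed by -0.16 and Ccr7 by -0.18, Ccl21 averaged 5.71 in either pool, and all 3 had overlapping arrays. Ccl27, a skin chemokine, had 5.81 and 5.91 on the obese arrays, against 5.64 and 5.64 on the lean arrays, a difference of 0.22 without overlap. Ccl28, which shares the receptor Ccr10 with Ccl27, had 4.54 and 5.22 on the obese arrays, which lay 0.69 apart, against 5.12 and 4.73 on the lean arrays. Ccr10 differed by 0.01.

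Ccl17 and Ccl22, ligands of Ccr4 on type 2 helper and regulatory T cells, differed by 0.01 and 0.16 with overlapping arrays. Ccr4 was lower by 0.26, at 3.41 and 3.67 on the obese arrays and 3.83 and 3.77 on the lean arrays, and dim in both pools. Ccl20 and its receptor Ccr6 differed by 0.02 and -0.11, and the gut-homing pair Ccl25 and Ccr9 by -0.07 and -0.02. Xcl1 and its dendritic cell receptor Xcr1 differed by 0.04 and -0.01. The remaining ligands Cxcl14 and Cxcl17 differed by 0.04 and -0.07. None of the 8 genes in the last 3 sentences had arrays without overlap.

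By class, 9 of 12 CXC ligands and 8 of 19 CC ligands had differences above 0, with medians of 0.12 and -0.05, against 8259 of all 14506 genes above 0 and a median of 0.03. The arrays of the pools did not overlap for 6 CXC ligands that were higher and 2 that were lower, and for 3 CC ligands that were higher and 5 that were lower. Among receptors 8 of 19 had differences above 0, and 3 were higher and 4 lower without overlap. Over all genes 27.5% were higher and 18.5% lower without overlap, and such small counts set no class apart from them. The difference between the classes was not tested.

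Genes that act with the family were described from lists. A list of 13 measured genes held family members named outside the symbol rule and genes related to the family. Of these, 0 were higher and 1 lower by the 1.5-fold rule, where 2.19% and 2.43% of all genes were. Their median difference was 0.01. The lower gene was Cd74, the invariant chain of class II antigen presentation and a receptor of the chemokine-like cytokine Mif. It had 8.69 and 8.64 on the obese arrays, against 9.21 and 9.34 on the lean arrays. Pf4, the platelet CXC chemokine, had 5.06 and 5.20 on the obese arrays, against 5.58 and 5.50 on the lean arrays, and did not pass. Of 33 genes of signalling downstream of the receptors 0 passed in either direction, with a median of 0.01.

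Of 33 inducers and transcription factors 1 was higher and 1 lower, where 2.19% and 2.43% of all genes were. Counts of 1 in lists this short do not set them apart from all genes. Tlr3, a sensor of double-stranded RNA, was 1.56-fold higher (1.32 to 1.84), at 7.37 and 7.09 on the obese arrays and 6.69 and 6.49 on the lean arrays. Stat6, which transmits interleukin 4 and 13 signals, was 1.60-fold lower (1.38 to 1.85), at 6.91 and 6.54 on the obese arrays and 7.44 and 7.38 on the lean arrays. Tnf and Il1b, cytokines that induce many chemokines, differed by 0.10 and 0.11. Of 25 genes of surface presentation and adhesion 1 was higher and 1 lower. Sdc1, a hepatocyte proteoglycan with the heparan sulfate chains that chemokines bind, was 1.87-fold higher (1.85 to 1.89), at 9.14 and 9.12 on the obese arrays and 8.23 and 8.22 on the lean arrays. Gpc1, a proteoglycan anchored to the membrane by a lipid, was 1.92-fold lower (1.66 to 2.22), with an obese level of 4.94 below the level filter. Of 15 proteases that trim or release chemokines 0 passed, and their median was -0.12.

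**Figure D5:**
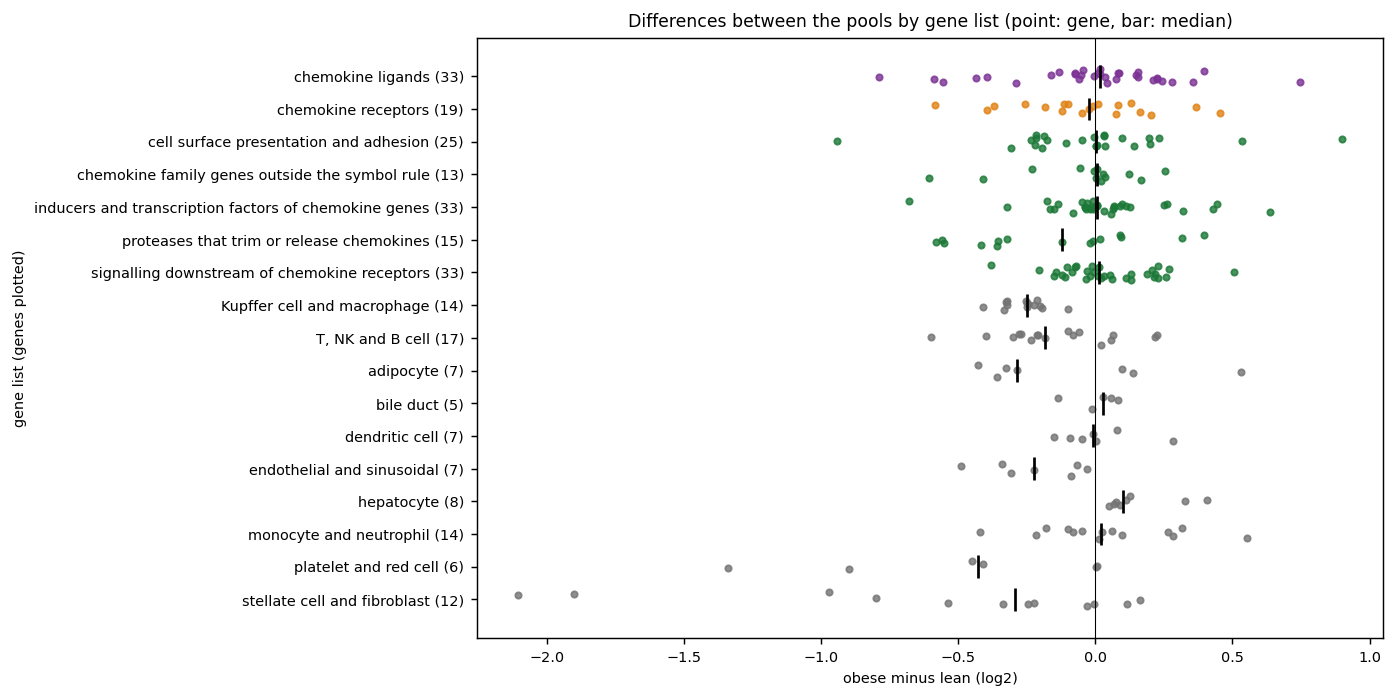
Difference of the pool means, obese minus lean on the log2 scale, for each gene of the family (top), of lists of genes that act with it (green) and of cell type marker lists (grey), with a bar at each median. The skeletal muscle list and the desmin gene, which reach down to -7.07, are not drawn. Medians of the ligands and receptors are 0.02 and -0.02, and all 14 macrophage markers lie below 0.

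Markers of skeletal muscle, red cells and some matrix-producing cells differed between the pools by the 1.5-fold rule, and no marker of the other lists did. Transcripts of skeletal muscle were abundant in the lean pool: all 17 measured markers passed the 1.5-fold rule as lower in the obese pool. Their summed linear intensity was 583 and 608 on the obese arrays, against 34792 and 36234 on the lean arrays. All 14 measured Kupffer cell and macrophage markers had differences below 0, 10 of them without overlap, but 0 passed the 1.5-fold rule. Their sum was 5116 and 4416 on the obese arrays, against 5603 and 5914 on the lean arrays. Of 17 T, NK and B cell markers 12 were below 0, and 8 were lower and 1 higher without overlap. Of these 17 markers 0 passed, with sums of 535 and 512 on the obese arrays, against 589 and 570 on the lean arrays. Of 6 platelet and red cell markers 2 passed as lower, and their sum was 3400 and 3362 on the obese arrays, against 6207 and 6475 on the lean arrays. Of 13 stellate cell and fibroblast markers 4 passed as lower, among them desmin, which is counted in the muscle list too, and their sum was 1601 and 1474 on the obese arrays, against 2649 and 2762 on the lean arrays. Of 7 endothelial markers 0 passed and all 7 had differences below 0, 5 of them without overlap, with sums of 1205 and 1111 on the obese arrays, against 1397 and 1379 on the lean arrays. All 8 hepatocyte markers had differences above 0, 6 of them without overlap, and 0 passed. Their sums were 57940 and 58164 on the obese arrays, against 51935 and 54090 on the lean arrays. For comparison, 2.43% of all genes were lower and 2.19% higher by the 1.5-fold rule. Without overlap 18.5% were lower and 27.5% higher, and 6245 of all 14506 genes had differences below 0. Of 14 monocyte and neutrophil markers 3 were higher and 3 lower without overlap, and 0 passed. Their sums were 618 and 613 on the obese arrays, against 608 and 633 on the lean arrays. The lists of dendritic cells, bile duct and adipocytes, with 7, 5 and 7 genes, held 0 that passed. No marker intensity is 0 on these arrays, though 10 of the 17 lymphocyte markers lay below the array median on all 4 arrays. The part of these cells and tissues in the differences of the family was not tested. That holds for the lower Cxcl13, Ccl2, Ccr2, Ccl24 and Ccl5 and for the higher Cxcl9, Ccl9, Cxcl12 and Cxcr4. Of the hepatocyte genes, Apoa1 stood at 12.59 and 12.65 on the obese arrays, against 12.22 and 12.21 on the lean arrays, and Alb at 13.72 and 13.77 on the obese arrays, against 13.61 and 13.72 on the lean arrays.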

How the data were processed

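RNA of an obese and a lean pool, each of 4 rats and 100 ng, was hybridised to 4 Affymetrix Rat Gene ST arrays. Per the submitters' processing notes, the deposited intensities come from RMA, which corrects background, normalises arrays to each other and summarises probes. They are linear, as their range of 2.31 to 14288 shows. The software version, the genome build and how the authors left the log scale are not given in the sources used here. Their log2 was taken with no further normalisation. No detection call was used, so a dim gene may hold background alone.

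Of 29214 probe sets, 15310 carried 1 symbol in the platform annotation, 323 several and 13581 were not listed there. The probe set with the highest mean represented a gene. The GRCr8 table held all 52 gene identifiers with 0 changed symbols and served for names and gene order.

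Arrays are technical replicates and their number limits the precision, so rules of size describe the pools and no test was made. Fold ranges over the 4 pairs of arrays cover measurement error only. The calculation was tested on simulated data. Genes were to be named if past the rule with or without the level filter, among the 12 highest levels or the 6 largest differences in each direction, or in a ligand and receptor pair, with up to 4 genes past the rule from each other list. Ifng, Tnf, Il1b and Pf4 were named after their values were seen. The members, lists and rules were chosen with earlier results of these data known. R 4.3.3 and limma 3.58.1 were used for cyclic loess and Python 3.11.15 for the rest.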

Additional observations from a re-analysis of the deposited data

How the results depend on the processing

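Cxcl9 ran from 0.46 to 1.03 and Cxcl13 from -1.05 to -0.52 across the settings tried. The count of members higher in the obese pool, 1 in the values reported, was 0 with a factor of 2 and a gap of 0.5 and 0 on the technical replicate arrays alone. It ran from 0 to 1 when an array was left out, being 0 without the obese original array. The count lower in the obese pool, also 1, was 2 with cyclic loess (Cxcl13 and Ccl24), 2 with the level filter at the median of all probe sets or with no level filter (Cxcl13 and Ccl2), 0 with a factor of 2 and 0 on the original arrays alone. It ran from 1 to 2 when an array was left out, with Ccl24 added without the obese original or the lean technical replicate array. The median of the ligands, 0.02, was 0.058 on the original and -0.0094 on the technical replicate arrays alone. It ran from 0.0014 to 0.082 when an array was left out. The median of the receptors, -0.02, was 0.038 on the original and 0.061 on the technical replicate arrays alone. When an array was left out, the receptor median ran from -0.052 to 0.0048. Both medians thus changed sign between settings. Over all genes, the rule gave 317 higher and 352 lower, and 227 and 400 with cyclic loess. It gave 347 and 401 with the level filter at the median of all probe sets, and 377 and 440 without a filter. With a factor of 2 and a gap of 0.5 it gave 83 and 215. On the original arrays alone the counts were 616 and 342, and on the technical replicate arrays alone 281 and 422. They were 259 and 391 without the obese original array, and 553 and 336 without the obese technical replicate array. Without the lean original array they were 334 and 379, and without the lean technical replicate array 344 and 355. The count above the array median was 19, and 13 when the median of all named genes on each array was used. Of the 52 genes 24, all of them with overlapping arrays, took the other sign in at least 1 alternative. A gene without overlap cannot change sign when arrays are left out, so those alternatives do not show how stable such genes are. No paired analysis was possible because each phenotype is 1 pool and no test was made; the comparisons within the original and within the technical replicate arrays, given above, are values only. Dim genes are limited by signal over background, which was not measured here.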
